A study of Mus musculus and Mus spretus with 18 samples.

Results

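Genes with a transient peak at day 14 are those whose expression in the mouse brain was higher in pups than in newborns and than in young adults, in 2 species alike. They were chosen from a table of log2 expression values for 12346 Ensembl genes. A gene was taken when, in musculus and in spretus, its day 14 mean of 3 arrays exceeded the day 0 mean by at least 0.35 and the day 56 mean by at least 0.35 on the log2 scale. The rule held for 79 genes, of which 2 are left out by the rule itself, so 77 members are described. The values that chose them are the 4 differences just named, so these are given as a description with no test.

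The samples were whole brains, without the olfactory bulb, of male mice. Musculus stands for Mus musculus of the strain WSB/EiJ and spretus for Mus spretus of the strain SPRET/EiJ. Animals of each species were taken on the day of birth (day 0), as pups at day 14 and as adults at day 56, with 3 animals and 3 arrays in each of the 6 groups. The labels name no treatment, and each strain stands for its species alone. The arrays hold no read counts, and their number limits the precision. Arrays of 1 group correlated with r between 0.992 and 0.996 across genes.

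The mouse is born with an immature brain. In the weeks after birth glial cells are formed, axons are wrapped in myelin, blood vessels spread, synapses form in excess and are pruned, and the cerebellum still makes and moves neurons. A gene used in such a passing stage can be high in a pup and low both before and after. In a whole brain more cells of a type and more RNA per cell cannot be told apart. No source used here gives a gene name for an Ensembl ID, so the members are described by the shape of their time course, and no role is given to any of them.

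Peaks of this kind were a small part of the early changes. Over all genes, 1546 were higher at day 14 than at day 0 by 0.35 or more in both species. Of these 5.11% then stood lower at day 56 by the same margin in both, which are the 79 genes of the rule, and 8.54% (132 genes) stood higher by that margin. The remaining 1335 did neither in both species. The rule turned round, for a trough at day 14, held for 17 genes.

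The median member stood 1.09 above its newborn level at day 14 in musculus and 0.83 above it in spretus, against medians of -0.0018 and 0.026 over all genes. The drop, which is the day 14 mean minus the day 56 mean, had a median of 0.61 in musculus and 0.55 in spretus, against -0.02 and 0.01 over all genes. The rises were spread over a wider range than the drops. In musculus they ran from 0.36 to 6.35 and in spretus from 0.35 to 5.92, whereas the drops ran from 0.35 to 1.47 and from 0.35 to 1.54. A rise of at least 2-fold in both species was seen in 30 members and a drop of that size in both in 2. For 66 of the 77 members it was the drop, in musculus (29) or in spretus (37), that came closest to the threshold.

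The 2 members with the clearest peak, ranked by the smallest of their 4 differences, had different shapes. ENSMUSG00000038173 stood first. In musculus its log2 levels were 4.96, 4.99 and 5.48 at day 0, then 7.03, 7.50 and 6.77 at day 14, then 5.71, 5.82 and 5.90 at day 56. In spretus they were 5.18, 5.31 and 5.16, then 7.46, 6.90 and 7.30, then 5.91, 5.82 and 5.70. No array of day 14 overlapped with one of another age in either species, and the species had nearly the same curve. By day 56 this gene had lost 65.9% of its rise in musculus and 70.5% in spretus. Here and below, shares of a rise are taken in log2 units, and shares of linear levels would differ.

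ENSMUSG00000032854 stood second and kept most of its rise in log2 units. Its newborn levels were 6.85, 6.29 and 6.32 in musculus and 7.26, 7.21 and 7.33 in spretus. At day 14 they were 10.97, 11.25 and 10.93 in musculus and 11.55, 11.14 and 11.41 in spretus. At day 56 they were 9.99, 9.91 and 9.90 in musculus and 9.78, 9.87 and 9.83 in spretus, so that 24.4% and 37.6% of the rise had been lost. This gene and the first were the 2 members with all 4 differences of at least 2-fold.

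**Figure D1:**
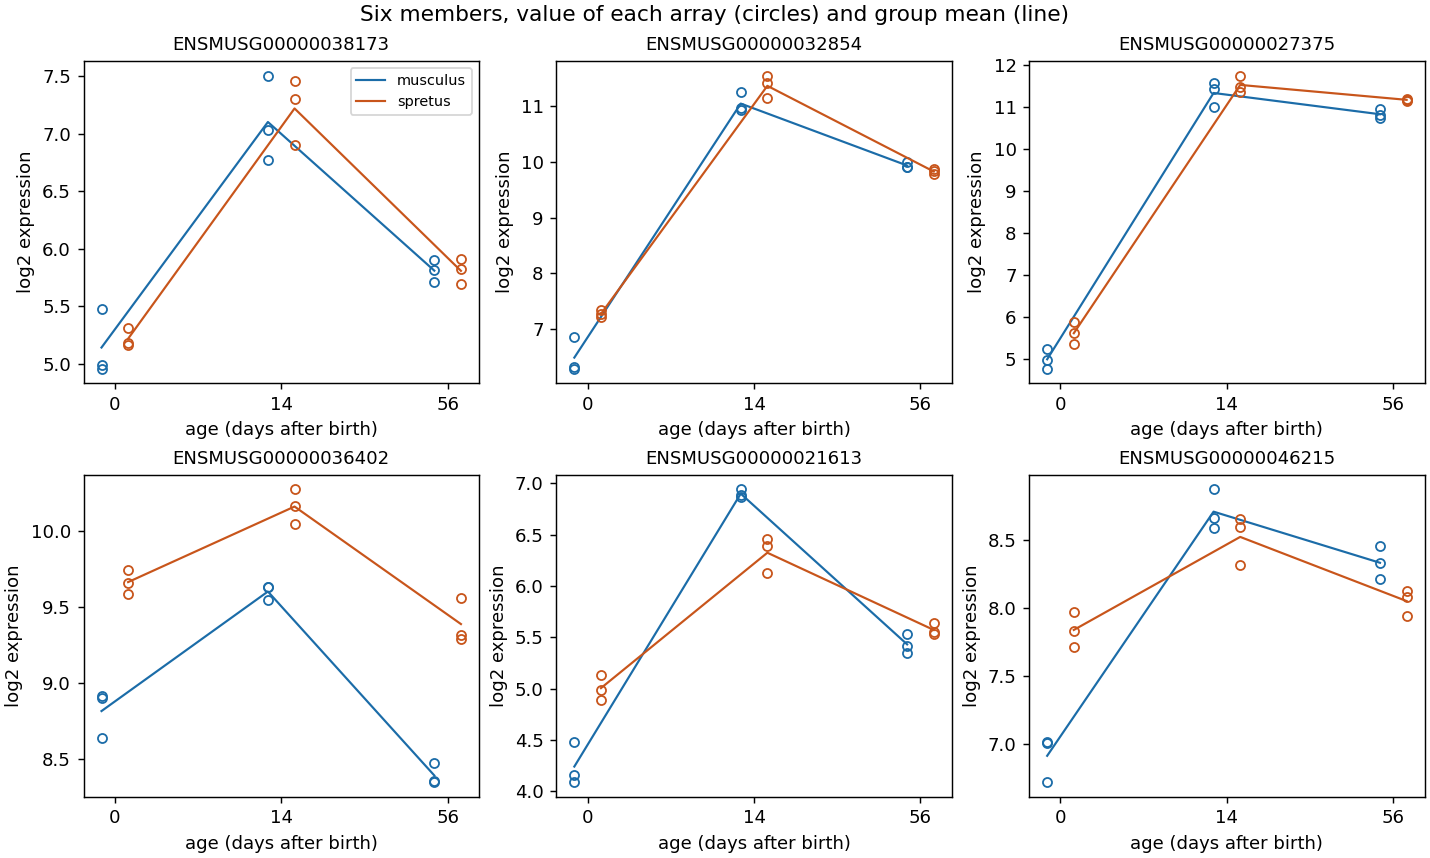
Log2 expression of 6 members against age in days, with ages evenly spaced; each circle is 1 array, each line joins the means of 3 arrays, blue is musculus and orange is spretus. ENSMUSG00000038173 and ENSMUSG00000032854 have the clearest peaks, and ENSMUSG00000027375 keeps nearly all of its rise in log2 units. ENSMUSG00000036402 ends below its newborn level, and ENSMUSG00000021613 and ENSMUSG00000046215 have a smaller rise in spretus.

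Below these, the smallest of the 4 differences lay between 0.73 and 0.97 for the members ranked 3 to 10, between 0.59 and 0.72 for those ranked 11 to 24, and between 0.43 and 0.58 for those ranked 25 to 50. The last 27 members lay between 0.35 and 0.43. At the threshold the choice was a fine one. The 3 members just inside had a smallest difference of 0.3534, 0.3531 and 0.3503, and the 3 genes just outside had 0.3493, 0.3487 and 0.3480.

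In most members the day 14 arrays stood apart from all others. In 74 members all 3 musculus arrays of day 14 were above all 6 musculus arrays of days 0 and 56, and 4.03% of all genes had this pattern. In spretus 67 members had it, against 4.49% of all genes, and in both species 66 had it, against 1.60%. The rule used the same values, so nothing is read from these counts. Spretus day 14 replicate 2 was the array that most often fell among the others, in 7 members, and the other day 14 arrays did so in 0 to 3.

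**Figure D2:**
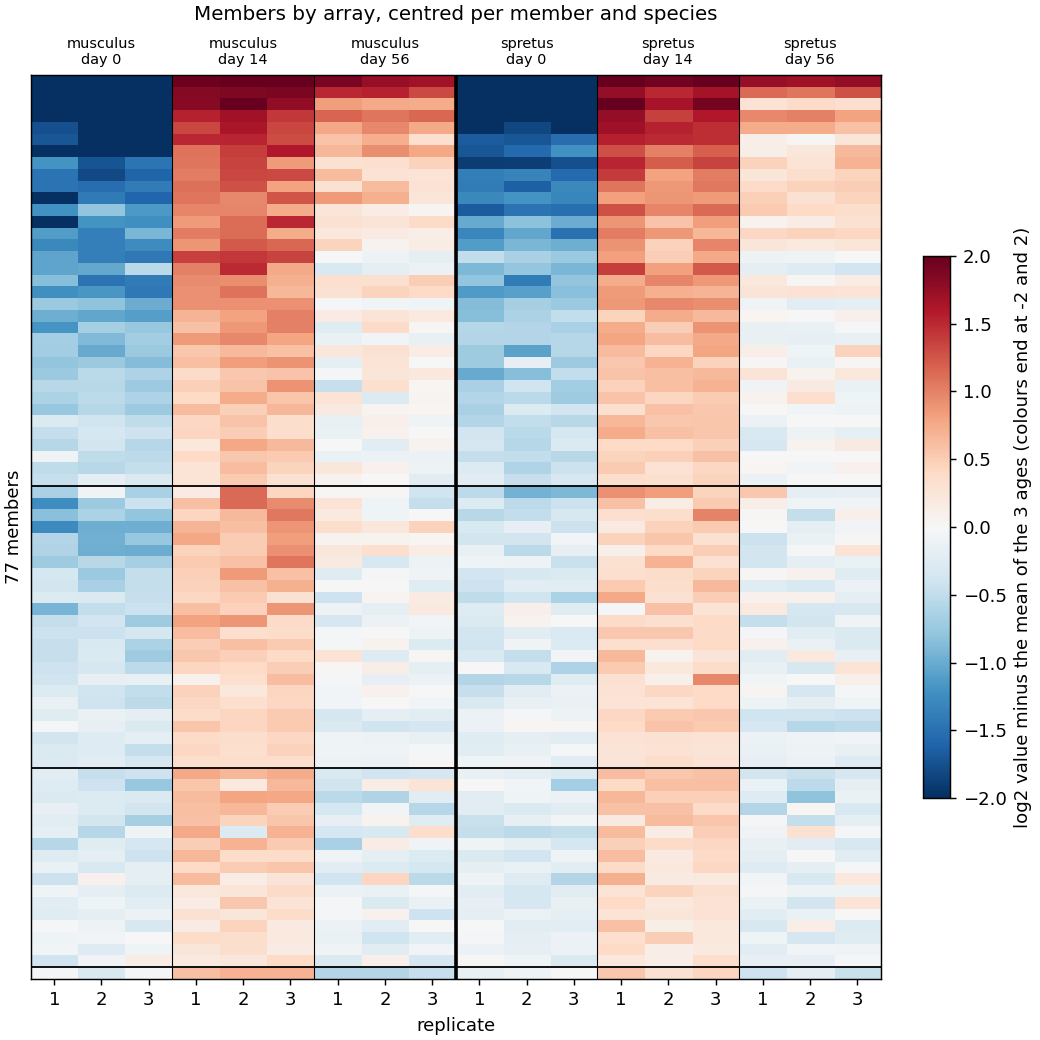
Each row is 1 of the 77 members and each column 1 of the 18 arrays; colours give the log2 value minus the mean of the 3 ages of that member in that species, and end at -2 and 2. From top to bottom the blocks hold the 35 members called higher at day 56 than at day 0 in both species, the 24 called in 1 species, the 17 called in neither and the 1 called lower in both; within a block, members are ordered by their rise. In the day 14 columns 460 of 462 cells lie above that mean (red). The rule itself sets the day 14 mean of every member above it, so nothing is read from this count. The depth of blue at day 0 differs from block to block.

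In 7 members the newborn level of at least 1 species lay under 4.76, the log2 limit below which the dimmest 25% of genes lie, so the sizes of their rises may not be exact. In 3 members the mean over all 18 arrays lay under it.

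The median over members of each array's distance from the middle of the day 0 and day 56 means was alike among replicates. It was 0.84, 0.94 and 0.91 in the 3 musculus arrays of day 14 and 0.78, 0.76 and 0.78 in the 3 of spretus. The young adult arrays gave 0.24, 0.32 and 0.29 in musculus and 0.21, 0.19 and 0.19 in spretus. The newborn arrays gave -0.26, -0.23 and -0.31 in musculus and -0.17, -0.20 and -0.19 in spretus. The rule used the same arrays, so nothing is read from this likeness. Measured from their own middle, the day 0 and day 56 means of a member mirror each other and give 1 distance. That distance was smaller in spretus than in musculus.

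Because the rule used both species, a choice made in 1 species alone allows the other to be read in arrays that took no part in it. In musculus 221 genes passed the musculus part of the rule, with the same 2 IDs left out. In spretus 77 of them (34.8%) passed the spretus part too, against 1.57% of all genes. Both steps were called in spretus (limma, each at adjusted p under 0.05) for 70 of the 221 (31.7%), against 1.30% of all genes, and both differences were above 0 in 173 (78.3%), against 29.7%. The median rise of these genes was 0.75 in musculus, where they were chosen, and 0.51 in spretus, and the median drop was 0.49 and 0.31. The other way round, 192 genes passed in spretus and 77 of them (40.1%) in musculus, against 1.81% of all genes. Both steps were called in musculus for 71 of these (37.0%), against 1.90% of all genes. The median rise of these genes was 0.66 in spretus, where they were chosen, and 0.69 in musculus. Their median drop was 0.46 in spretus and 0.30 in musculus. The median rise was thus smaller in the species not used for the choice when musculus chose, but not when spretus chose. Most genes chosen in 1 species did not reach the threshold in the other.

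Among the 77 members the sizes of the rise went together in the 2 species, with a Pearson correlation of 0.94 and a Spearman correlation of 0.82, and those of the drop less closely, with 0.66 and 0.63. These are correlations across 77 genes of 1 array design that were all cut at the same threshold, and they are given as a description.

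The rule did not fix whether a member returned to its newborn level, since it set day 14 against each of the other ages but not these against each other. The day 56 mean lay above the day 0 mean in 69 members in musculus and in 62 in spretus, and by the test more members were called higher than lower in each species. In musculus 54 of the 77 (70.1%) were higher at day 56 than at day 0 and 1 was lower (limma, adjusted p under 0.05), where 22.3% of all genes were higher and 23.7% lower. In spretus 38 (49.4%) were higher and 3 lower, where 20.6% of all genes were higher and 22% lower. The median difference of day 56 from day 0 was 0.49 in musculus and 0.34 in spretus, against 0.03 and 0.01 over all genes. In both species 35 members were called higher, against 16% of all genes, 1 was called lower, against 18.3%, and 17 were called in neither, against 45.9%. The other 24 were called in 1 species: 19 higher in musculus, 3 higher in spretus and 2 lower in spretus. The rest of all genes were likewise called in 1 species, apart from 0.138% called in both with opposite signs. Whether these 24 differed between the species was not tested. The difference of day 56 from day 0 equals the rise minus the drop, so it is made of differences that the rule used. Members had to rise by day 14, whereas all genes include those that fell after birth. The shares of all genes are thus not a matched background, and the share among genes that rose was not counted. The counts are given as a description, and nothing is read from the excess of higher calls.

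The largest of these lasting rises belonged to ENSMUSG00000027375, which lost 7.98% of its log2 rise by day 56 in musculus and 6.01% in spretus. In musculus it stood at 11.01, 11.56 and 11.43 at day 14 and at 10.95, 10.80 and 10.73 at day 56. In spretus the levels were 11.74, 11.36 and 11.47, then 11.18, 11.14 and 11.20. The ages did not overlap, but in musculus the highest day 56 array, at 10.95, lay close to the lowest day 14 array, at 11.01. Day 56 was above day 0 by 5.84 ± 0.15 in musculus and by 5.56 ± 0.15 in spretus (log2, SE; limma, adjusted p = 3.35e-14 and 5.74e-14). ENSMUSG00000031425 came next, with a day 56 level above day 0 by 4.77 ± 0.20 in musculus and 3.96 ± 0.20 in spretus (limma, adjusted p = 2.27e-12 and 3.81e-11) and with 7.96% and 10.9% of the rise lost.

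A member of the opposite kind, ENSMUSG00000036402, was the one called lower at day 56 than at day 0 in both species. Its musculus levels were 8.90, 8.64 and 8.91 at day 0, then 9.54, 9.63 and 9.63 at day 14, then 8.35, 8.35 and 8.47 at day 56. Its spretus levels were 9.59, 9.66 and 9.75, then 10.27, 10.05 and 10.16, then 9.32, 9.56 and 9.29. The 3 ages did not overlap in either species. The log2 difference of day 56 from day 0 was -0.42 ± 0.10 in musculus and -0.28 ± 0.10 in spretus (SE; limma, adjusted p = 0.0012 and 0.0253).

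The 2 members lower at day 56 in spretus alone were ENSMUSG00000007944 and ENSMUSG00000032724. The first stood at 10.25, 10.42 and 10.39 at day 0 in spretus and at 10.03, 9.80 and 9.85 at day 56, a difference of -0.46 ± 0.09 (log2, SE; limma, adjusted p = 0.000336). In musculus its difference was -0.19 (adjusted p = 0.0965), in the same direction. The second was lower at day 56 by 0.32 in spretus, with a log2 difference of -0.32 ± 0.07 (limma, adjusted p = 0.00114), and the musculus difference was -0.05 (adjusted p = 0.597). Its 3 spretus arrays of day 56, at 5.95, 5.95 and 5.93, lay below all of its other 15 arrays.

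**Figure D3:**
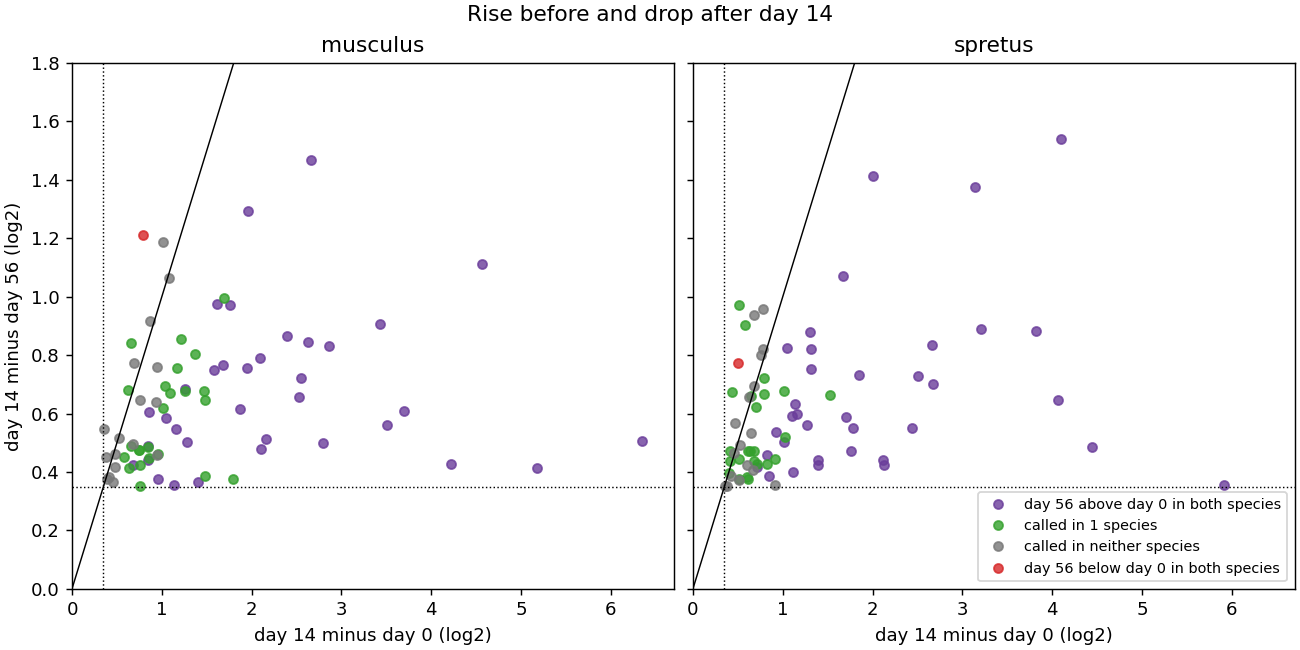
Day 14 minus day 56 against day 14 minus day 0, both in log2 units, for the 77 members in musculus (left) and spretus (right); dotted lines mark the threshold of 0.35 and the solid line marks a drop equal to the rise. Points to the right of the solid line ended above their newborn mean. Drops stay below 1.6 while rises reach 6.35 in musculus and 5.92 in spretus.

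In log2 units the share of the rise that was lost thus went with the size of the rise. The 12 members with a rise of at least 4-fold in both species had lost a median of 21.1% of it in musculus and 22.9% in spretus by day 56, and all 12 were called higher at day 56 than at day 0 in both. The 18 members with a rise of at least 2-fold in both species but under 4-fold in at least 1 had lost 45.7% and 43.9%, and 16 of them were called. The 47 members with a rise under 2-fold in at least 1 species had lost 64.7% and 84.1%, and 7 of them were called. The drops themselves differed less, with medians of 0.63, 0.72 and 0.50 in musculus and 0.69, 0.63 and 0.47 in spretus for the 3 groups in the same order. Both the share and the grouping use the rise, and the threshold keeps every drop above 0.35, so this is given as a description. The calls share their day 0 arrays with the grouping and are a description too. Of all genes, whatever their rise, 16% were called higher at day 56 in both species. The share among all genes with rises of these sizes was not counted. Over all 77 members the median share lost was 55.9% in musculus and 62.5% in spretus. In 6 members more than 100% was lost in both species, so that the day 56 mean lay below the day 0 mean, and 1 of these was called lower in both.

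**Figure D4:**
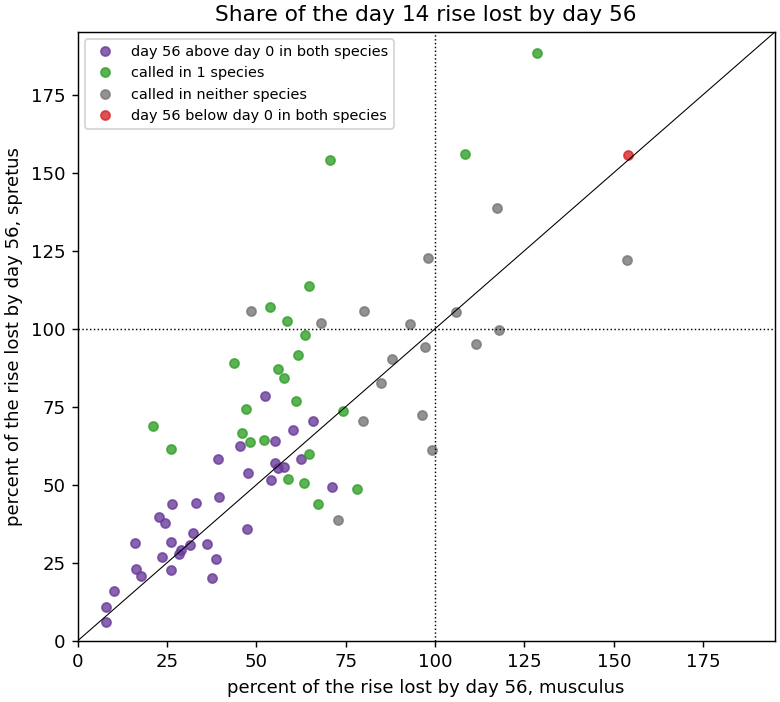
Percent of the day 14 rise, in log2 units, lost by day 56 in spretus against musculus for the 77 members. Dotted lines at 100% mark a full return to the newborn mean, and the solid line marks equal shares. The points run from 6.01% to 189% in spretus and from 7.96% to 154% in musculus, and the members called higher at day 56 in both species lie at the lower left.

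The species were compared at each age with limma over all 12346 genes, a comparison the rule did not use. Members were called between the species more often than genes at large. At day 0, 18 members were called (23.4%), against 14.3% of all genes; at day 14, 22 (28.6%), against 13.1%; and at day 56, 22 (28.6%), against 14.3%. Over the 3 ages 39 members (50.6%) were called at least once, against 27.3% of all genes. The members also had more probes on the deposited list of masked probes, with 69 of 77 having at least 1 (73.9% of all genes) and 17 having 7 or more (12.2% of all genes). Of the 8 members without a masked probe 3 were called at some age (13.6% of all such genes), of the 52 with 1 to 6 27 (28.5%), and of the 17 with 7 or more 9 (50.2%). Members were also brighter than genes at large, mainly at the later ages. Ranked by level among all genes, members had a median percentile of 55.0 in musculus and 56.9 in spretus at day 0. At day 14 it was 77.9 and 79.9, and at day 56 it was 70.2 and 72.0. The shares of all genes are thus not a background matched for level. The part of the masked probes or of the level in the species differences was not tested.

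The direction of the difference was not the same at the 3 ages. In newborns 15 of the 18 called members were higher in spretus and 3 lower, where 7.44% and 6.90% of all genes were called in each direction. At day 14, 7 were higher and 15 lower, against 6.84% and 6.30% of all genes, and at day 56, 8 were higher and 14 lower, against 7.59% and 6.71%. Counted over all 77 members with no regard to the test, 64.9% had the higher mean in spretus at day 0, 40.3% at day 14 and 39.0% at day 56, against 53.6%, 56.4% and 51.6% of all genes. Newborns had a median difference of 0.10, pups of -0.09 and young adults of -0.08. The counts rest in part on single arrays. The day 0 count was 10 without spretus day 0 replicate 3. The day 14 count was 14 without musculus day 14 replicate 3. At day 56 it dropped to 13 when musculus day 56 replicate 2 was removed, and to 14 when spretus day 56 replicate 1 or 2 was.

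**Figure D5:**
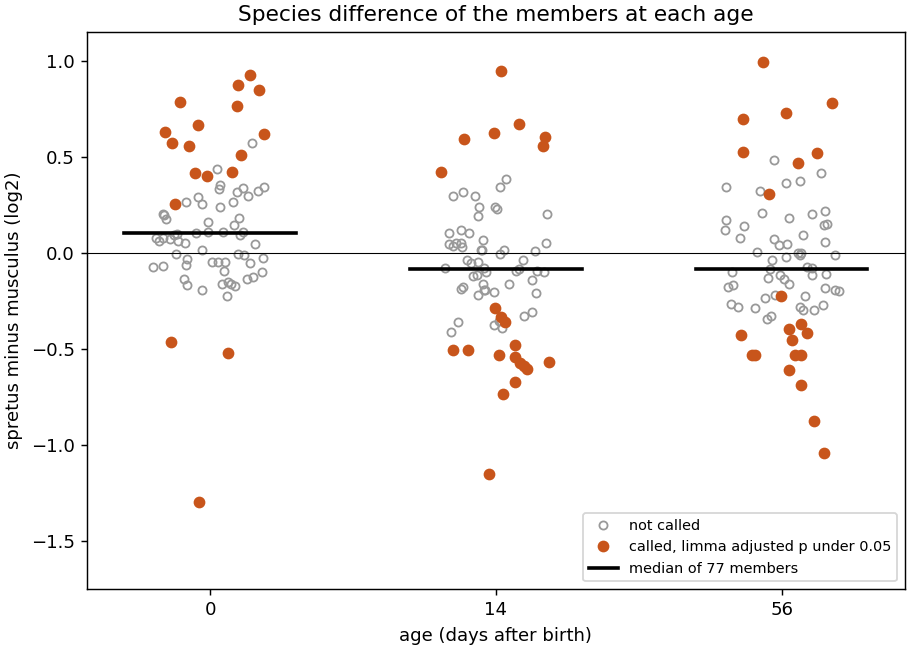
Spretus minus musculus (log2) of the 77 members at days 0, 14 and 56; filled circles are members called by limma at adjusted p under 0.05, open circles those that were not, and bars are medians over members. The median lies at 0.10 at day 0 and at -0.09 and -0.08 at days 14 and 56, and most filled circles lie above 0 at day 0 and below 0 at the later ages.

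Of the called members, 6 differed at all 3 ages and kept 1 direction, 3 higher and 3 lower in spretus, and 3.94% of all genes did so. The greatest difference of a lower member at each age was that of ENSMUSG00000010277. Its newborn levels were 7.27, 7.78 and 7.51 in musculus and 6.47, 6.27 and 5.94 in spretus. The groups did not overlap at day 0, and the log2 difference was -1.30 ± 0.23 (SE; limma, adjusted p = 0.00094). It was -1.15 ± 0.23 at day 14 (adjusted p = 0.00315) and -1.04 ± 0.23 at day 56 (adjusted p = 0.00526). Its own peak was a weak one. In musculus it stood at 8.33, 7.84 and 7.96 at day 14 and at 7.29, 8.12 and 7.16 at day 56, so that 1 array of day 56 lay above 2 of day 14. ENSMUSG00000039167 was also lower in spretus at every age, with log2 differences in order of age of -0.52 ± 0.14, -0.74 ± 0.14 and -0.61 ± 0.14 (limma, adjusted p = 0.0212, 0.00281 and 0.00836). Its day 0 call was lost without musculus day 0 replicate 2 or spretus day 0 replicate 2. ENSMUSG00000010277 and ENSMUSG00000039167 had 6 masked probes each.

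ENSMUSG00000036402, the member called lower at day 56 than at day 0 in both species, was higher in spretus throughout. Newborns differed by 0.85 ± 0.10, pups by 0.56 ± 0.10 and young adults by 0.997 ± 0.095 (log2, SE; limma, adjusted p = 1.68e-05, 0.000943 and 3.29e-06), and the species did not overlap at any age. Of its probes 9 were masked.

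Other members parted at some ages. ENSMUSG00000026879, with 17 masked probes the most of any member, had similar newborn levels of 6.45, 5.93 and 6.20 in musculus and 6.44, 6.44 and 6.58 in spretus. At day 14 it stood at 8.73, 9.01 and 8.50 in musculus and at 9.86, 9.54 and 9.68 in spretus, a difference of 0.95 ± 0.14 (limma, adjusted p = 0.000336). At day 56 spretus was still higher, by 0.78 ± 0.14 (adjusted p = 0.0014). The species overlapped at day 0 and were apart from day 14 on. ENSMUSG00000032517 had no call at day 0 (0.24 ± 0.15, limma, adjusted p = 0.364) and was lower in spretus at day 14, by a log2 difference of -0.61 ± 0.15 (adjusted p = 0.0149), and at day 56, by -0.88 ± 0.15 (adjusted p = 0.00107). ENSMUSG00000027489 was higher in spretus at day 0 by 0.88 ± 0.16 and at day 14 by 0.63 ± 0.16 (limma, adjusted p = 0.00127 and 0.0153), while at day 56 its difference was 0.37 ± 0.16 (adjusted p = 0.137). Masked probes numbered 8 in ENSMUSG00000032517 and 4 in ENSMUSG00000027489.

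Whether the rise itself differed was tested as the spretus change minus the musculus change from day 0 to day 14. The rule put a lower bound on the rise in each species but none on their difference. In 58 of the 77 members (75.3%) the rise was smaller in spretus, and the median difference was -0.18. Over the 1931 genes with a mean rise of at least 0.35 the share was 59.5% and the median difference -0.06. The difference was called in 4 members (5.19%; limma, adjusted p under 0.05), 3 with the smaller and 1 with the larger rise in spretus, against 1.11% of all genes, with 0.599% smaller and 0.51% larger in spretus. At an unadjusted p under 0.05 the rise was smaller in spretus in 25 members and larger in 3, against 6.44% and 6.86% of all genes. Most members were thus not shown to differ in their rise.

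ENSMUSG00000021613 had the largest difference in rise among the members. In musculus it went from 4.48, 4.16 and 4.09 at day 0 to 6.88, 6.94 and 6.87 at day 14 and 5.53, 5.42 and 5.35 at day 56. In spretus it went from 5.14, 4.99 and 4.89 to 6.46, 6.13 and 6.39 and then to 5.53, 5.55 and 5.64. Spretus was thus higher in newborns by 0.76 ± 0.11, lower at day 14 with a log2 difference of -0.58 ± 0.11 (SE; limma, adjusted p = 0.000119 and 0.00191), and not called at day 56 (0.14 ± 0.11, adjusted p = 0.431). The difference in rise was -1.34 ± 0.15 (adjusted p = 0.00101). The musculus newborn level of 4.24 lies under the limit of 4.76 for the dimmest genes, so the size is not exact, and 9 of its probes were masked.

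ENSMUSG00000046215 was called between the species in newborns alone. Its day 0 levels were 6.72, 7.01 and 7.004 in musculus and 7.83, 7.97 and 7.71 in spretus. At day 14 the species overlapped, at 8.66, 8.59 and 8.87 against 8.32, 8.60 and 8.65. From birth on the species differences were 0.93 ± 0.11, -0.19 ± 0.11 and -0.28 ± 0.11 (log2, SE; limma, adjusted p = 3.82e-05, 0.313 and 0.112). The rise was smaller in spretus, with a difference of -1.11 ± 0.16 (adjusted p = 0.00219), and by day 56 20.9% of it was lost in musculus and 68.9% in spretus.

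ENSMUSG00000006403 was the member with the larger rise in spretus. It stood at 5.73, 6.15 and 5.79 in newborn musculus and at 5.73, 5.92 and 5.88 in newborn spretus. At day 14 the values were 7.92, 7.92 and 7.68 in musculus and 8.66, 8.36 and 8.52 in spretus, with no overlap. The difference in rise was 0.72 ± 0.16 (log2, SE; limma, adjusted p = 0.0324). This call was lost in 8 of 24 alternative settings, among them the removal of musculus day 0 replicate 2, of musculus day 14 replicate 3, of any newborn spretus array and of spretus day 14 replicate 1 or 3. The remaining called member was ENSMUSG00000030785, named after its values were seen, with a difference of -0.78 ± 0.18 (adjusted p = 0.0464). With 2 calls in place of 4, the count was sensitive to the removal of musculus day 0 replicate 2, spretus day 0 replicate 2 or 3, or spretus day 14 replicate 1 or 3.

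The fall from day 14 to day 56 was not called different between the species in any member. The number of members called was 0 (limma, adjusted p under 0.05), and it was 7 at an unadjusted p under 0.05, with 3 differences above 0 and 4 below, where 4.93% and 5.82% of all genes were called in each direction at the same p. Of all genes 5 (0.0405%) were called at the adjusted p. The drop was smaller in spretus in 45 of the 77 members (58.4%), against 64.7% of the 544 genes with a mean drop of at least 0.35. The median difference between the species' drops, spretus minus musculus, was -0.03. The test used the change from day 14 to day 56, spretus minus musculus, which has the opposite sign. A value above 0 there means a smaller drop in spretus. The lowest and highest of these differences in change were -0.47 and 0.72. A miss of the threshold does not show that the falls were alike.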

How the data were processed

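Total RNA of 18 brains was labelled with biotin and hybridised to Affymetrix mouse arrays of the 1-colour type, per the labels. The deposited table holds log2 values, 1 per Ensembl gene and array, already normalized between arrays: the array medians lay between 6.52 and 6.56. The log base is inferred from the range of 2.89 to 13.82. How the background was corrected and probes were summarised is not given in the labels, nor are scan dates, so no batch was examined. A second deposited table, named as a list of masked probes and holding 46864 probe positions on the array, was used to count masked probes per gene. The authors' reason for masking is not given in the labels or the file header.

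Replicates are described as individuals in the labels. One mean per group was fitted to all 18 arrays with limma 3.58.1 in R 4.3.3 (lmFit, contrasts.fit, eBayes), with 12 residual degrees of freedom. Two-sided p-values were adjusted by Benjamini and Hochberg over all 12346 genes within each contrast, with 0.05 as the threshold for a call. No filter was applied, so all 77 members were tested. The procedure was also run on simulated data with independent normal noise, most genes unchanged and changes put into a single group. In the real data many genes change with age, so that run does not measure how often the calls here are wrong.

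The members and lists were chosen with earlier results of these data known. The reference holds no Ensembl ID: 0 of 12346 IDs matched a symbol, and the 27 gene lists and the promoter motifs drawn up for this work could not be used, nor could any sequence be tied to a member. Named are the 2 members with the largest smallest-of-4 difference and, per tested contrast, up to 2 called members with the largest difference in each direction; the named-gene rule was shortened in this way because the IDs have no symbols.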

Additional observations from a re-analysis of the deposited data

Results flagged for a closer look

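In 4 members the rise before day 14 was not the same in spretus and musculus, by limma's test of the difference in change, and this test is what set them apart. ENSMUSG00000021613 had a difference of -1.34 on the log2 scale (spretus minus musculus), ENSMUSG00000046215 of -1.11 and ENSMUSG00000006403 of 0.72. The first pair kept their calls in all 24 alternative settings that held them, with values between -1.46 and -1.24 and between -1.18 and -1.01. The third lost its call in 8 of 24, with adjusted p between 0.0228 and 0.0933. The setting without genes with a masked probe held none of them, since they have 9, 3 and 5 masked probes in the order named. Groups of 3 arrays are too small to screen for single outlying arrays.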

How the results depend on the processing

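Among the values of named members under the alternative settings, 519 kept their direction and call, 10 lost the call and 0 turned direction. Named members with a masked probe have no value in the setting without such genes. The number of members was 156, 33 and 2 with a threshold of 0.25, 0.5 and 1 in place of 0.35, 8 without genes with a masked probe, and 72 to 86 with 1 array left out. With group medians in place of means 77 genes passed, of which 63 were the members described. Without genes with a masked probe, 8 members remained for testing, and the calls were 0, 1 and 1 for the species difference at days 0, 14 and 56, 0 for the difference in rise, and 5 each for day 56 against day 0 in musculus and spretus. With the arrays of the contrast alone, 2 members were called for the difference in rise. With 1 array left out, the calls were 10 to 19, 14 to 23 and 13 to 22 for the species at the 3 ages, 2 to 6 for the difference in rise, 0 for the difference in fall, and 49 to 55 and 36 to 43 for day 56 against day 0. Quantile normalization, median centring, a variance trend, the removal of the dimmest 25% of genes and, for the number of members, group medians or a demand that arrays do not overlap kept every count within 1.5 times. Arrays with the same replicate number in other groups had deviations from their group means that correlated by -0.16 to 0.15 (median 0.0035). For arrays with another number the range was -0.17 to 0.19 (median 0.0014). Whether arrays with the same number shared a batch was not tested. With the replicate number as a block, the calls were 19, 20 and 21 for the species difference at the 3 ages, 4 for the difference in rise, 0 for the difference in fall, and 52 and 41 for day 56 against day 0.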
